A study of Arabidopsis thaliana with 14 samples.

Results

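The response of Arabidopsis roots to boron limitation was examined in the 3 genotypes that keep the boric acid channel NIP5;1. These are wild type (ecotype Col-0) and the single mutants bor1 and bor2, in the same ecotype. Their 6 arrays were taken from the 14 arrays of the study, which also holds 4 genotypes that carry the nip5;1 mutation (nip5;1, nip5;1 bor1, nip5;1 bor2 and nip5;1 nip6;1, at the same boron levels, called nip5;1 genotypes here). All plants were 12 days old: they spent 10 days on solid medium with 100 µM boron and then 2 days with boric acid at either 0.3 µM (low) or 100 µM (sufficient). The labels describe bor1 as in need of high boron for rosette growth and bor2 for root growth, each affected at 3 µM. Each genotype has 1 array at 0.3 µM and 1 at 100 µM, so the comparison is of 3 pairs, and its error is the spread between genotypes and not between plants of 1 genotype. In the main fit this spread is taken from all 14 arrays, the nip5;1 genotypes included. An SE or p-value from it therefore does not measure the agreement of the 3 intact pairs alone. The probe sets described are those that moved the same way in all 3 pairs.

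Boron is taken up by roots as boric acid. In the plant cell wall, borate joins pairs of rhamnogalacturonan II chains, a pectin, and this cross-link is needed for wall strength and cell expansion. NIP5;1 lets boric acid into root cells under low boron, BOR1 exports borate towards the xylem, and BOR2 exports borate to the wall, where it serves the pectin cross-link. Loss of any of these raises the external boron a plant needs for normal growth.

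Transcripts were read with the Affymetrix ATH1 array, which reads a transcript through several short probes, and the values are MAS5 signals on a linear scale. Of 22746 probe sets, the 13648 with a mean signal of at least 113.2 units over all arrays were tested. The array annotation used here pairs 7390 of the tested probe sets with a single gene, and the others are given by probe set ID. The probe sets of NIP5;1, BOR1 and BOR2 are not among the named ones, so the loss of BOR1 or BOR2 was not checked here. Root markers were present on every array: EXPA7, a root hair expansin, had 1391, 1100 and 875.1 units at 0.3 µM in wild type, bor1 and bor2, and 1126, 1262 and 862.0 units at 100 µM. Only 2 of 22 root markers on the list have a named probe set.

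The array of bor2 at 0.3 µM stood apart from the other 5. Its median Spearman correlation with the other 13 arrays of the study was 0.9746, against 0.9831 to 0.9853 for the other 5 intact arrays. On it, 151 probe sets lay at least 2-fold above all 5 other arrays, where the others had between 0 and 11 such probe sets. Results are therefore given pair by pair. The numbers in the array titles run on within a boron level, and whether they mark the order of the arrays is not stated. If they do, array order and boron level cannot be told apart.

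Few probe sets passed a test of the boron response over the 3 intact genotypes. In a limma fit with a boron term for the intact genotypes, 18 probe sets passed an adjusted p of 0.05, which is 0.132% of those tested: 14 were higher at 0.3 µM (0.103%) and 4 were lower (0.0293%). The arrays of the 2 boron levels did not overlap for any of the 18. Signals were higher at 0.3 µM on all 3 arrays for 4.87% of tested probe sets and lower on all 3 for 6.29%. A direction shared by the 3 pairs was found for 30.2% of tested probe sets: 13.1% were higher in every pair and 17.1% lower. With only 3 pairs, shared directions and groups without overlap also arise where boron has no effect. These shares are therefore not counts of responding transcripts. Large changes in every pair were few: 11 probe sets (0.0806%) were at least 2-fold higher in every pair and 2 (0.0147%) at least 2-fold lower. Of the 18, 7 passed also when only the 6 intact arrays were fitted and when any 1 of the 7 genotypes was left out, and all of these were higher at 0.3 µM. The other 11, with all 4 falls among them, lost the call in at least 1 of these fits. The arrays read RNA of whole roots, so fewer cells of a type and less RNA per cell cannot be told apart.

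**Figure D1:**
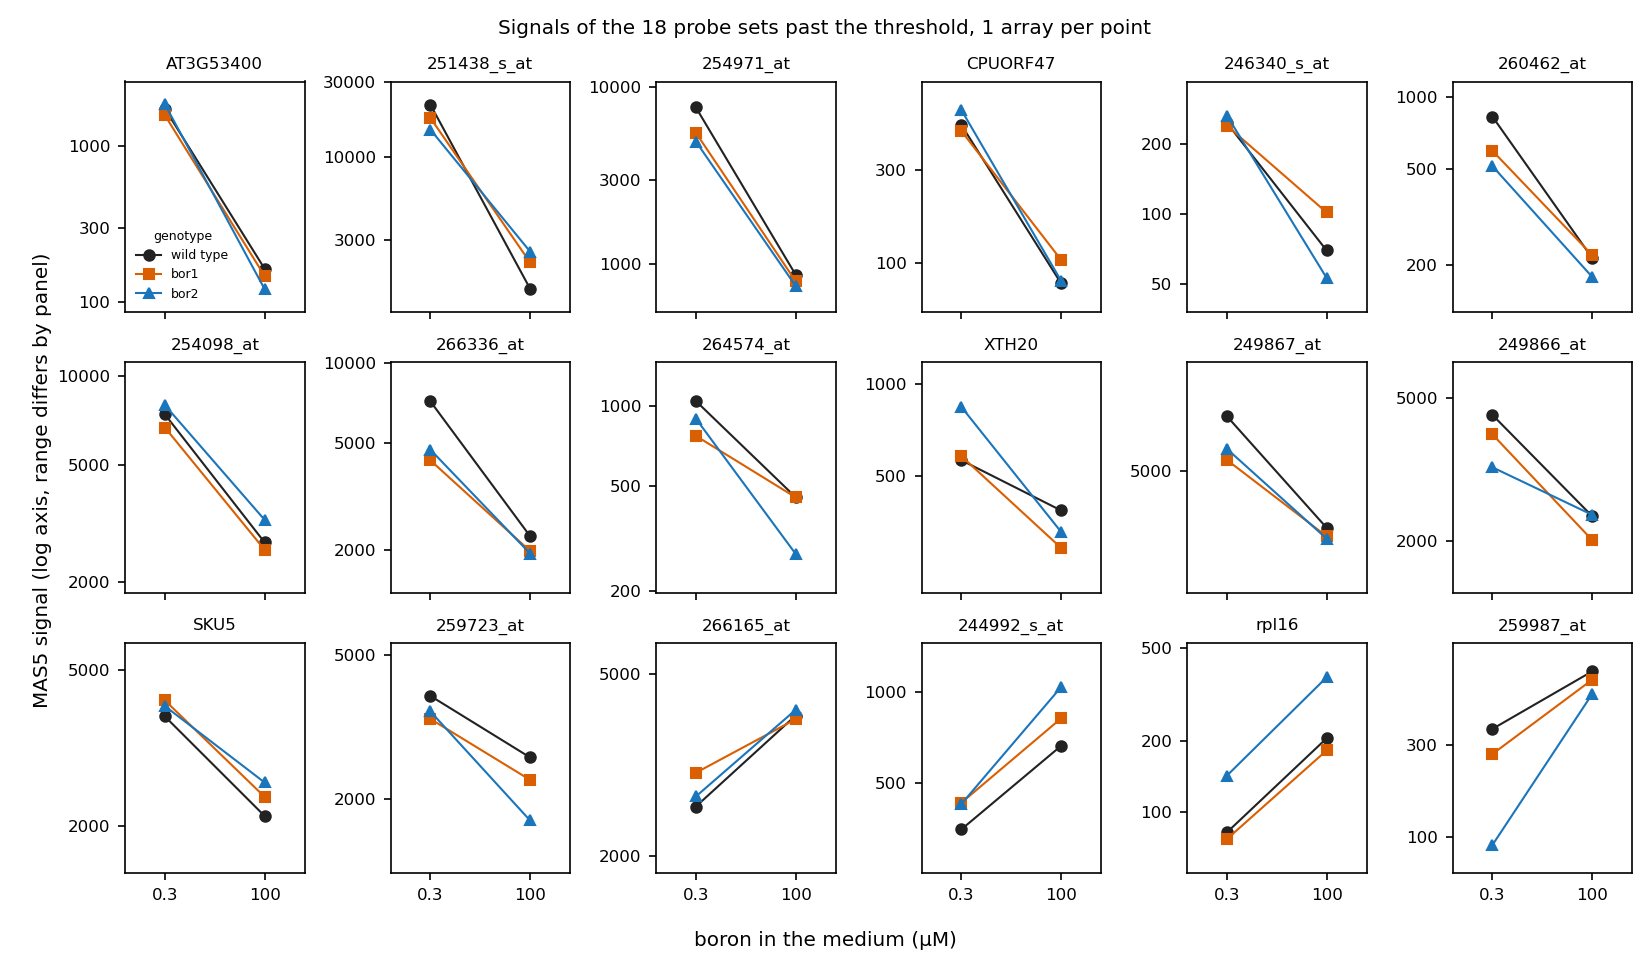
MAS5 signal (vertical log axis, range differs by panel) at 0.3 and 100 µM boron for the 18 probe sets past the threshold, with 1 array per point and 1 line per genotype. In every panel the 3 points at 0.3 µM lie all above or all below the 3 points at 100 µM, from AT3G53400 with a mean log2 difference of 3.59 down to 259987_at with -1.61.

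The strongest named response was that of AT3G53400, a gene without a symbol in the annotation used. Its signal was 1735, 1574 and 1851 units at 0.3 µM in wild type, bor1 and bor2, against 163.5, 147.0 and 121.1 units at 100 µM. The groups were far apart, and the genotypes lay close together within each. The mean log2 difference was 3.59 with an SE of 0.13 (adjusted p = 3.98e-07, limma), which is 12.02-fold. The pairs of wild type, bor1 and bor2 gave log2 ratios of 3.41, 3.42 and 3.93.

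CPUORF47 was next among the named genes. RefSeq lists it as a conserved peptide upstream open reading frame, a class of short reading frames in the 5′ leader of a transcript. The probe set is assigned to the locus AT5G03190 and not to the short frame alone, and what else this transcript encodes was not assessed. It had 510.9, 475.8 and 609.2 units at 0.3 µM and 79.0, 104.2 and 81.4 units at 100 µM. All arrays at 0.3 µM lay more than 4-fold above those at 100 µM. The mean log2 difference was 2.60 with an SE of 0.17 (adjusted p = 4.10e-05, limma). AT3G53400 and CPUORF47 were the only ones of the 18 to pass under all 17 alternative settings of the fit.

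Several probe sets with no single gene name responded in the same range. Probe set 251438_s_at, whose suffix marks probes shared by several transcripts, had 21430, 17670 and 14910 units at 0.3 µM and 1475, 2162 and 2532 units at 100 µM. Its log2 ratio was largest in wild type (3.86) and smallest in bor2 (2.56), with a mean of 3.15 (SE 0.21, adjusted p = 4.10e-05, limma). Probe set 254971_at had 7624, 5493 and 4908 units at 0.3 µM and 875.4, 804.7 and 756.6 units at 100 µM. The 3 genotypes agreed closely, with log2 ratios of 3.12, 2.77 and 2.70 and a mean of 2.86 (SE 0.19, adjusted p = 4.10e-05, limma). Probe set 246340_s_at had 246.7, 240.3 and 265.6 units at 0.3 µM and 69.9, 101.8 and 53.3 units at 100 µM. Its level at 0.3 µM was nearly the same in the 3 genotypes, while that at 100 µM was spread. The mean difference was 1.79 (SE 0.22, adjusted p = 0.00939, limma), and the call was lost without wild type (adjusted p = 0.0992) or without bor2 (0.0674). With a covariate for RNA integrity, given below, the call was lost as well (0.0718).

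A further 3 unnamed probe sets were at least 2-fold higher in every pair and kept their call in every fit that left a genotype out. Probe set 260462_at had 829.1, 597.4 and 515.7 units at 0.3 µM and 213.8, 219.8 and 178.3 units at 100 µM, a mean log2 difference of 1.64 (SE 0.14). Probe set 254098_at had 7415, 6690 and 7972 units at 0.3 µM and 2718, 2566 and 3244 units at 100 µM, a difference of 1.38 (SE 0.12). Probe set 266336_at had 7159, 4312 and 4724 units at 0.3 µM and 2246, 1976 and 1935 units at 100 µM, a difference of 1.36 (SE 0.13). None of the 3 had overlapping groups. The remaining unnamed rises, 264574_at (1.22), 249867_at (0.83), 249866_at (0.78) and 259723_at (0.71), passed with all arrays (adjusted p from 0.0273 to 0.0455, limma) but each lost the call when wild type was left out (0.156 to 0.319). They also lost it in other fits that left out a genotype, with an adjusted p of up to 0.201.

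Among cell wall genes, SKU5 and XTH20 rose. SKU5, a wall and membrane glycoprotein that acts in directional root growth, had 3809, 4184 and 4047 units at 0.3 µM and 2126, 2378 and 2587 units at 100 µM. The 3 arrays at 0.3 µM lay close together and above all 3 at 100 µM. The mean log2 difference was 0.77 with an SE of 0.09 (1.70-fold, adjusted p = 0.00515, limma). The call was lost without wild type (adjusted p = 0.0868) or without bor1 (0.0523), and in the fit of 6 arrays (0.0906).

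XTH20, an enzyme that cuts and rejoins the xyloglucan chains of the wall, had 562.9, 580.4 and 840.1 units at 0.3 µM and 385.8, 291.1 and 328.4 units at 100 µM. The groups did not overlap, but the pairs differed in size, with log2 ratios of 0.55, 1.00 and 1.36 in wild type, bor1 and bor2. The mean was 0.97 (SE 0.14, adjusted p = 0.0282, limma). The call was lost in the fit of 6 arrays (adjusted p = 0.242) and without bor1 (0.146), bor2 (0.120), nip5;1 (0.0654), nip5;1 bor1 (0.0664) or nip5;1 nip6;1 (0.0551). With a covariate for RNA integrity, given below, the call was lost as well (0.157). XTH26, of the same family, had 299.2, 308.7 and 273.6 units at 0.3 µM and 210.0, 187.8 and 155.6 units at 100 µM, with no overlap and a mean log2 difference of 0.68 that did not pass (SE 0.20, adjusted p = 0.351). Of 9 tested members of the xyloglucan endotransglucosylase family, 1 passed in limma, against 0.132% of all tested probe sets. An unadjusted p under 0.05 was reached by 4, against 8.43%. In all 3 pairs, 2 were higher (13.1% of all tested) and 1 was lower (17.1%), and 6 were mixed. The family median was 0.10 (log2), against -0.01 over all tested probe sets. It was 0.25, -0.15 and -0.10 in the pairs of wild type, bor1 and bor2.

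The other wall families did not move together either. Of 40 tested class III peroxidases, secreted enzymes that cross-link or loosen the wall, 0 passed in limma (10 at an unadjusted p under 0.05), 11 were higher in every pair, 5 were lower and 24 were mixed, with a median of 0.05. Over all tested probe sets, 8.43% had such a p, 13.1% were higher in every pair and 17.1% were lower. Both the count at an unadjusted p and the count of higher members are above these shares. In the wild-type and bor1 pairs alone, 11 of the 40 (27.5%) were higher in both and 11 (27.5%) lower, with a median of 0.019. Of all tested probe sets, 25% were higher and 27.8% lower in both. Without the bor2 pair, the share of higher peroxidases was thus close to that of all tested probe sets. The highest peroxidases were AT1G71695 and PRX52. AT1G71695 had 466.8, 537.2 and 628.5 units at 0.3 µM and 260.7, 342.0 and 279.5 units at 100 µM, with no overlap (log2 difference 0.89, SE 0.15, adjusted p = 0.0625, limma). PRX52, linked to lignin formation, had 39.1, 129.2 and 228.8 units at 0.3 µM and 20.3, 12.4 and 15.3 units at 100 µM. Its 2 lower values at 100 µM are under the floor of 20 units to which low values were raised, so its mean log2 difference of 2.38 (SE 0.50, adjusted p = 0.151) understates the change. AT1G34510 (0.64, adjusted p = 0.283) was higher and AT2G35380 (-0.47, adjusted p = 0.266) lower in each pair.

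Pectin methylesterases, which set the charge of pectin and so its gelling, had 16 tested members, of which 0 passed in limma (4 at an unadjusted p under 0.05), 4 were higher and 2 lower in every pair (median -0.08), to be read against the same 8.43%, 13.1% and 17.1%. AT2G47550 had 714.2, 631.3 and 1446 units at 0.3 µM and 518.7, 497.8 and 390.9 units at 100 µM, a mean log2 difference of 0.90 (SE 0.24, adjusted p = 0.283) to which the bor2 pair contributed 1.89. ATPMEPCRD had 192.7, 118.2 and 85.2 units at 0.3 µM and 234.7, 242.5 and 205.1 units at 100 µM, without overlap (log2 -0.86, SE 0.21, adjusted p = 0.242). Of 13 tested expansins, 0 passed (2 at an unadjusted p under 0.05, against 8.43% of all tested) and 10 were mixed. EXLA1 (0.45) was higher in each pair, and EXPB3 (-0.47) and EXPB1 (-0.33) were lower. Of 26 genes of cellulose and wall polysaccharide synthesis, 0 passed (1 at an unadjusted p under 0.05), 3 were higher (13.1% of all tested) and 4 were lower (17.1%), and the median was -0.03. The receptor kinase THE1, which senses wall integrity, had 474.1, 523.1 and 515.4 units at 0.3 µM and 596.8, 661.5 and 718.9 units at 100 µM, without overlap (log2 -0.38, SE 0.11, adjusted p = 0.354).

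Transcripts encoded in the plastid genome were lower at 0.3 µM in most cases. The annotation names 69 plastid-encoded transcripts, and 34 were bright enough to be tested. Of these, 25 were lower in all 3 pairs, 0 were higher and 9 were mixed, where 17.1% of all tested probe sets were lower in all 3 pairs. The groups did not overlap for 16 of the 34, all lower at 0.3 µM, against 6.29% of all tested probe sets. The median log2 difference was -0.45, and it was -0.33, -0.47 and -0.53 in the pairs of wild type, bor1 and bor2. The 34 share organelle and mode of transcription, so they are not separate observations, and 1 of them passed the threshold, rpl16 (21 were lower at an unadjusted p under 0.05, which 8.43% of all tested probe sets reached in either direction).

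The plastid transcripts are also given by function, in small groups that do not cover all 34 and were not tested against each other. All 10 genes of the plastid ribosome (rpl and rps) were lower in every pair, as were 8 of 11 photosystem genes (psa and psb) and 3 of 4 genes of the cytochrome complex and ATP synthase (pet and atp). For the NADH dehydrogenase (ndh) it was 1 of 3, and for the plastid RNA polymerase (rpo) 1 of 2. The median signal of the 34 was 618, 644 and 627 units at 0.3 µM in wild type, bor1 and bor2, and 808, 836 and 947 units at 100 µM. The medians at 0.3 µM all lay below those at 100 µM.

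**Figure D2:**
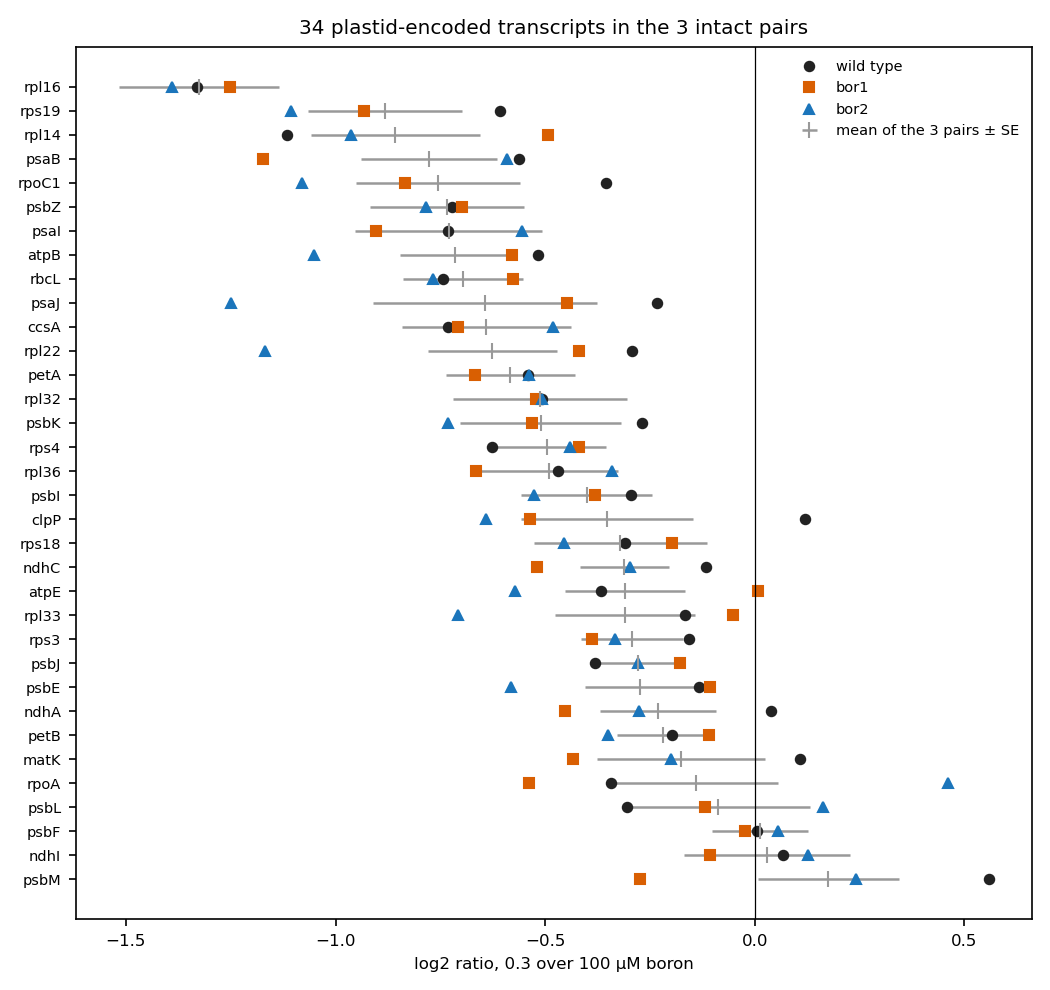
Log2 ratio of 0.3 over 100 µM boron (horizontal axis) for the 34 tested plastid-encoded transcripts, 1 per line, with 1 point per genotype and the mean of the 3 pairs ± SE in grey. Most points lie left of 0, and rpl16, at a mean of -1.32, is the only transcript past the threshold.

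The transcript rpl16 encodes a protein of the large plastid ribosome subunit. It had 82.0, 76.8 and 143.0 units at 0.3 µM and 206.2, 183.1 and 374.7 units at 100 µM. The bor2 arrays were the brighter ones at both boron levels, and the groups did not overlap. The log2 ratios were -1.33, -1.25 and -1.39, with a mean of -1.32 (SE 0.19, 2.50-fold lower, adjusted p = 0.0273, limma). The call was lost without each intact genotype (adjusted p = 0.179, 0.122 and 0.127 without wild type, bor1 and bor2), without nip5;1 (0.0508) or nip5;1 bor1 (0.0664), and in the fit of 6 arrays (0.0801).

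Other plastid transcripts were lower in each pair and did not pass. The ribosomal gene rps19 had 442.9, 436.1 and 569.5 units at 0.3 µM and 675.5, 832.8 and 1226 units at 100 µM (log2 -0.88, SE 0.18, adjusted p = 0.140). The ATP synthase gene atpB had 1830, 2224 and 2004 units at 0.3 µM and 2621, 3320 and 4155 units at 100 µM (log2 -0.72, SE 0.13, adjusted p = 0.0764). The gene of the large Rubisco subunit, rbcL, had 179.0, 146.3 and 182.3 units at 0.3 µM and 299.8, 218.1 and 310.5 units at 100 µM (log2 -0.70, SE 0.14, adjusted p = 0.135). None of the 3 had overlapping groups.

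The ratio of 3′ to 5′ signal of the GAPDH control, a measure of RNA integrity, was 1.60, 1.90 and 1.81 at 0.3 µM in wild type, bor1 and bor2, and 1.76, 1.60 and 1.31 at 100 µM. Its difference between the boron levels was -0.17 in wild type, 0.30 in bor1 and 0.50 in bor2. With this ratio as a covariate, rpl16 lost its call (log2 -1.35, adjusted p = 0.131, limma). The other falls among the 18 lost theirs too (244992_s_at 0.131, 259987_at 0.157 and 266165_at 0.165). So did the rises XTH20 (0.157), 246340_s_at (0.0718), 249866_at (0.0732), 264574_at (0.133) and 259723_at (0.21). The rest of the 18 kept their call, with AT3G53400, CPUORF47 and SKU5 among them. The part of RNA integrity in the plastid median was not tested. Over the wild-type and bor1 pairs alone, 27 of the 34 plastid transcripts (79.4%) were lower in both, against 27.8% of all tested probe sets, with a median of -0.35. Of 6 tested nuclear genes of the photosystems and green tissue, 5 were lower at 0.3 µM in both the wild-type and the bor1 pair, and 0 were lower in all 3 pairs. Their part in the plastid result was not tested. RCA, which activates Rubisco, had 378.4, 379.0 and 1242 units at 0.3 µM and 416.8, 481.5 and 456.6 units at 100 µM, so the bor2 pair ran the other way.

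A further 3 probe sets with no single gene name fell, and whether any of them reads a plastid transcript was not assessed. Probe set 259987_at had 360.9, 268.0 and 91.2 units at 0.3 µM and 713.9, 646.8 and 545.3 units at 100 µM. The pairs ranged widely, with log2 ratios of -0.98, -1.27 and -2.58 and a mean of -1.61 (SE 0.26, adjusted p = 0.0479, limma). Probe set 244992_s_at had 351.5, 430.8 and 426.7 units at 0.3 µM and 665.2, 820.5 and 1042 units at 100 µM, a mean of -1.05 (SE 0.15, adjusted p = 0.0258). Probe set 266165_at had 2568, 3043 and 2701 units at 0.3 µM and 4057, 3984 and 4175 units at 100 µM, a mean of -0.56 (SE 0.09, adjusted p = 0.0479). Each of the 3 lost its call when any 1 intact genotype was left out (adjusted p from 0.0549 to 0.319), without nip5;1 (0.0508 to 0.124) or nip5;1 bor1 (0.0655 to 0.0934), and in the fit of 6 arrays (0.0832 to 0.247).

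Ranking by the smallest of the 3 ratios, which does not use the model, brought up further genes whose pairs agreed. The first 15 named rises were at least 0.51 (log2) in every pair, and for 13 of them the groups did not overlap, but only 4 passed the threshold. The first 15 named falls were at least 0.50 in size in every pair. Of these, 9 are plastid-encoded, 9 had groups that did not overlap, and 1 passed. Among the 7390 tested probe sets that name 1 gene, 34 are plastid-encoded. Over all tested probe sets, the groups did not overlap for 4.87% (higher) and 6.29% (lower). The ranking used the same 6 arrays and itself favours groups that lie apart, so the counts without overlap are a description and not separate support.

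**Figure D3:**
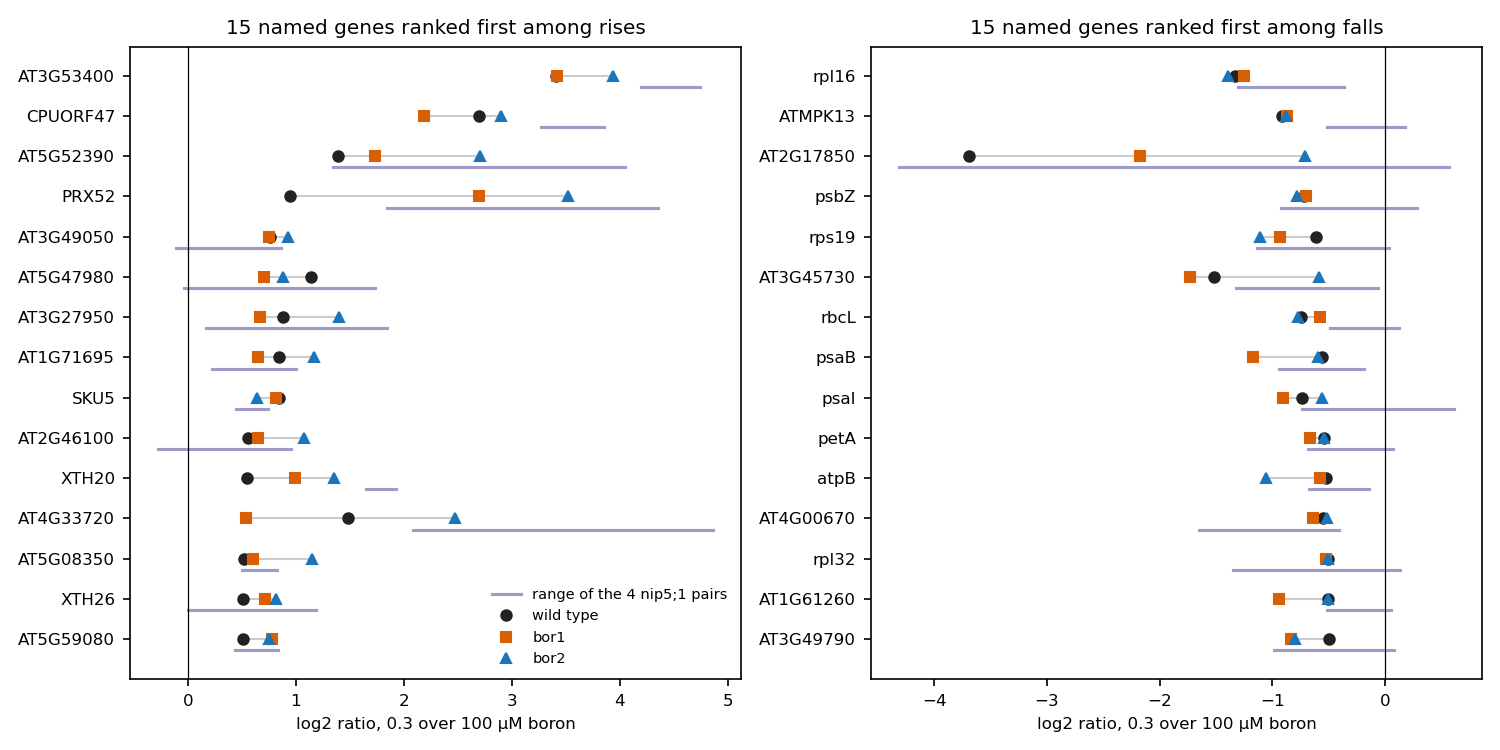
Log2 ratio of 0.3 over 100 µM boron for the 15 named rises (left) and 15 named falls (right) with the largest ratio in their weakest pair, with 1 point per intact genotype and a bar for the range of the 4 nip5;1 pairs. AT3G53400 and CPUORF47 stand apart on the left, with every pair above 2, and the tight trios on the right include rpl16, ATMPK13 and psbZ.

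AT5G52390 had 55.1, 89.2 and 152.4 units at 0.3 µM and 21.0, 26.8 and 23.4 units at 100 µM and is, beside AT3G53400 and CPUORF47, the only named gene at least 2-fold higher in every pair. The groups did not overlap, but the log2 ratios were spread, at 1.39, 1.74 and 2.70 in wild type, bor1 and bor2, and the mean of 1.94 (SE 0.46) did not pass (adjusted p = 0.232, limma). AT5G47980, an acyltransferase of the gene cluster that makes and modifies the triterpene thalianol in roots, had 1108, 866.0 and 1025 units at 0.3 µM and 503.1, 529.4 and 556.5 units at 100 µM. The groups were well apart, while the log2 difference of 0.91 (SE 0.26) did not pass (adjusted p = 0.346, limma). It passed without nip5;1 bor2 (0.0148), but not in the fit of 6 arrays (0.140) or without any 1 of the other 6 genotypes (0.351 to 0.723).

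AT5G08350 had 570.8, 646.2 and 914.6 units at 0.3 µM and 396.9, 424.3 and 412.0 units at 100 µM (log2 0.76, SE 0.13, adjusted p = 0.0625, limma). AT3G49050 had 292.0, 260.5 and 349.0 units at 0.3 µM and 172.0, 154.8 and 183.4 units at 100 µM (log2 0.81, SE 0.17, adjusted p = 0.135). Neither gene had overlapping groups. AT4G33720, a secreted protein of the pathogenesis-related CAP family, had 482.1, 290.7 and 2084 units at 0.3 µM and 172.3, 199.8 and 375.6 units at 100 µM. It was higher in every pair, but the bor1 array at 0.3 µM lay under the bor2 array at 100 µM, and the difference of 1.50 did not pass (adjusted p = 0.381).

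Among the falls that are not plastid-encoded, ATMPK13, a MAP kinase, had the most even pairs. It had 97.7, 126.4 and 174.4 units at 0.3 µM and 184.1, 231.5 and 320.1 units at 100 µM, so that both groups increased from wild type to bor2 and all 3 log2 ratios lay between -0.91 and -0.87. The mean of -0.89 (SE 0.16) had an adjusted p of 0.0764. AT3G45730 had 100.7, 72.1 and 88.1 units at 0.3 µM and 288.1, 239.2 and 132.1 units at 100 µM (log2 -1.28, SE 0.26, adjusted p = 0.135). AT2G17850 had 41.9, 26.1 and 15.4 units at 0.3 µM and 541.0, 118.0 and 32.7 units at 100 µM. Its groups overlap, since the bor2 array at 100 µM lies below the wild-type array at 0.3 µM, and its difference of -2.19 did not pass (adjusted p = 0.457).

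Probe set 252502_at was at least 2-fold higher in every pair, with 434.1, 216.3 and 144.5 units at 0.3 µM and 45.3, 77.4 and 48.1 units at 100 µM, and did not pass (log2 2.11, SE 0.43, adjusted p = 0.135). Probe set 266965_at was at least 2-fold lower in every pair, with 122.7, 70.4 and 107.6 units at 0.3 µM and 307.4, 160.5 and 220.8 units at 100 µM (log2 -1.18, SE 0.24, adjusted p = 0.135). Neither had overlapping groups. The unnamed falls 244940_at (log2 -1.18, adjusted p = 0.0742) and 260869_at (-1.75, adjusted p = 0.437) had groups that did not overlap either, and the size of the second rests on wild type, whose log2 ratio was -3.78 against -0.80 and -0.68 in bor1 and bor2.

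Just inside the minimum of 1 (log2, 2-fold) in every pair stood 266336_at, with a weakest ratio of 1.13, and 266965_at, with one of 1.04 in size. Just outside stood 259987_at at 0.98 and PRX52 at 0.95. At a minimum of 1.5-fold, 27 probe sets were higher in every pair (0.198% of those tested) and 15 lower (0.110%). A single gene is named for 9 of the 27 and 5 of the 15. Of these, 0 of the 9 and 3 of the 5 are plastid-encoded, and the origin of the unnamed ones was not assessed.

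Of 11 boron transport genes on the list, 2 are named in the annotation. The BOR family gene AT3G06450 had 419.9, 423.4 and 466.3 units at 0.3 µM and 548.1, 516.1 and 595.9 units at 100 µM. The groups did not overlap, and the log2 difference of -0.34 (SE 0.13) did not pass (adjusted p = 0.514, limma). AT5G25430, of the same family, was too dim to be tested, with 7.3, 20.1 and 13.7 units at 0.3 µM and 31.4, 43.7 and 21.1 units at 100 µM.

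Of the stress and signalling lists, 0 members passed in limma. Among the members of these lists that were lower or higher in every pair, CCS, the chaperone that supplies copper to superoxide dismutase, had the smallest adjusted p. It had 943.1, 1168 and 917.3 units at 0.3 µM and 1487, 1663 and 1233 units at 100 µM. Its groups did not overlap (log2 -0.53, SE 0.10, adjusted p = 0.103), and its unadjusted p was under 0.05, as were those of 2 of 5 WRKY factors, 2 of 10 glutathione transferases, 1 of 7 defensin-like and 3 of 3 hypoxia genes, where 8.43% of all tested probe sets had one. WRKY6, a transcription factor known for its part in the response to low boron, had 444.3, 445.2 and 641.7 units at 0.3 µM and 373.5, 431.4 and 369.5 units at 100 µM (log2 0.36, SE 0.14, adjusted p = 0.497). Among 10 tested glutathione transferases, GSTU20 was higher in each pair (0.54, adjusted p = 0.354) and GSTU21 lower (-0.59, adjusted p = 0.477). Of 7 defensin-like genes, 2 were higher in each pair, against 13.1% of all tested probe sets. These were PDF1.4 at 1.48 (adjusted p = 0.297) and LCR68, nearly unchanged at 0.05 (adjusted p = 0.910). The log2 ratios of PDF1.4 were spread, at 0.32, 1.675 and 2.45 in wild type, bor1 and bor2. Its value in bor2 at 100 µM, 9.7 units, lay under the floor. Of 3 hypoxia genes tested, 2 were lower in each pair, against 17.1% of all tested probe sets: AT5G66985 (-0.51, adjusted p = 0.571) and the lactate dehydrogenase gene AT4G17260 (-0.29, adjusted p = 0.589). The third, AT5G10040, was mixed, with log2 ratios of -5.68, -3.04 and 0 in wild type, bor1 and bor2. For it, 4 of the 6 values lay under the floor of 20 units.

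The 4 nip5;1 genotypes share no array with the intact ones. Their signals entered the mean that decided which probe sets were tested, but their ratios were not used to choose those at least 2-fold in every intact pair. Of the 11 higher ones, 9 were also higher in all 4 nip5;1 pairs, against 13.9% of all tested probe sets. Both of the lower ones, rpl16 and 266965_at, were lower in all 4, against 13.0%. All 11 of these passed in the nip5;1 class as well, where 5.17% of tested probe sets did. AT3G53400 had a log2 difference of 4.46 there and CPUORF47 one of 3.52, and the difference between the classes did not pass for either (adjusted p = 0.134 and 0.20, limma). XTH20 had 1.77 in the nip5;1 genotypes, SKU5 0.59 and rpl16 -0.77. The 34 plastid transcripts had a median log2 difference of -0.305 there.

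Of the 18 probe sets of the intact response, 15 passed in the same direction in the nip5;1 genotypes, and 2 differed between the classes. Over all tested probe sets, 5.17% passed in the nip5;1 genotypes in either direction. Both boron terms come from 1 fit with a shared error, so a small error favours both calls and the 15 are not independent agreement. Probe set 254971_at, at 2.86 in the intact genotypes, had 0.20 in the nip5;1 genotypes (difference 2.66, SE 0.25, adjusted p = 0.00361, limma). Probe set 246340_s_at, at 1.79 in the intact genotypes, had -0.77 (difference 2.56, SE 0.29, adjusted p = 0.00776). For 259987_at the values were -1.61 and -0.19, and the difference did not pass (adjusted p = 0.205).

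**Figure D4:**
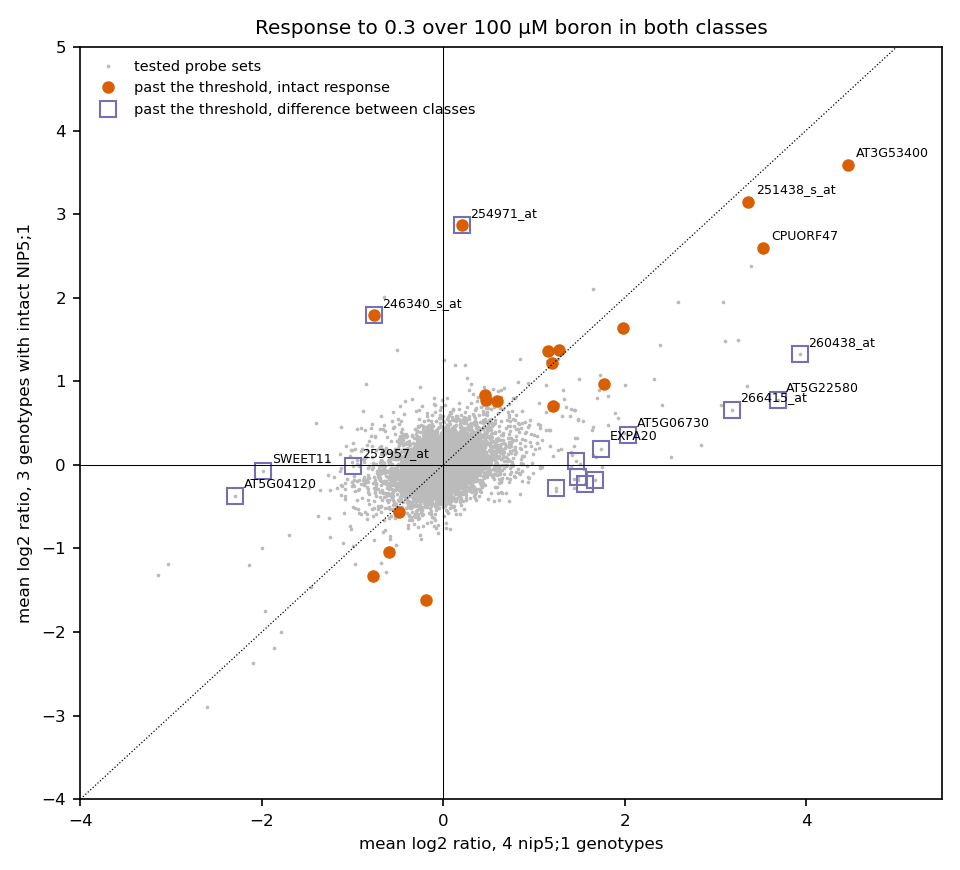
Mean log2 ratio of 0.3 over 100 µM boron in the 3 genotypes with intact NIP5;1 (vertical axis) against that in the 4 nip5;1 genotypes (horizontal axis) for the 13648 tested probe sets, with those past the threshold for the intact response filled and those past it for the difference between classes boxed. AT3G53400, 251438_s_at and CPUORF47 lie high in both classes, while 254971_at and 246340_s_at lie high on the vertical axis and near or below 0 on the horizontal one.

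In all, 15 probe sets (0.110%) differed between the classes, where 7.53% had an unadjusted p under 0.05 for the difference. The count was 0 without the filter on dim probe sets, and 2 (without nip5;1) to 46 (without nip5;1 bor2) when 1 genotype was left out. The other 13 were near 0 in the intact genotypes or moved less there. SWEET11, a sucrose transporter, had 1932, 1206 and 265.6 units at 0.3 µM and 1891, 1282 and 301.3 units at 100 µM in wild type, bor1 and bor2. Its level differed strongly between these genotypes but little between boron levels, with a log2 difference of -0.08 (SE 0.14), against -1.98 in the nip5;1 genotypes. AT5G06730, a class III peroxidase, had 114.8, 165.7 and 258.0 units at 0.3 µM and 114.4, 132.3 and 155.2 units at 100 µM, a difference of 0.35 (SE 0.18) against 2.04 in the nip5;1 genotypes. EXPA20, an expansin, had 0.19 (SE 0.17) in the intact genotypes against 1.74. AT5G06730 passed in 2 and EXPA20 in 3 of the 7 fits that left out a genotype (adjusted p of up to 0.159 and 0.142).

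The 3 intact pairs were not alike in the number of large changes. At least 2-fold higher at 0.3 µM were 48 probe sets in wild type, 28 in bor1 and 308 in bor2, and at least 2-fold lower were 36, 79 and 49. Across the 13648 tested probe sets, the log2 ratios of wild type correlated at 0.22 with those of bor1 and at 0.21 with those of bor2, and those of bor1 and bor2 at -0.05, as a description without a test. Of the 48 wild-type rises, 11 were also 2-fold higher in bor1 and 23 in bor2. Of the 308 rises of the bor2 pair, 83 were higher in both other pairs and 100 were at or below 0 in both. In 280 of the 308, the bor2 array at 0.3 µM was the brightest of the 6.

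A clock gene and genes of green tissue were brightest on the bor2 array at 0.3 µM. The clock gene GI had 324.4, 303.8 and 1293 units at 0.3 µM and 181.3, 243.2 and 241.8 units at 100 µM. It was higher in every pair, with log2 ratios of 0.84, 0.32 and 2.42, and did not pass (mean 1.19, adjusted p = 0.251, limma). The antenna protein gene LHCB4.2 had 200.7, 170.8 and 593.9 units at 0.3 µM and 219.9, 240.3 and 246.5 units at 100 µM, lower at 0.3 µM in wild type and bor1 and higher in bor2. All 3 tested green tissue markers, of 20 on the list, were lower at 0.3 µM in the wild-type and bor1 pairs and higher in the bor2 pair. Of all tested probe sets, 27.8% were lower in both the wild-type and the bor1 pair. The part of these tissues in the bor2 pair was not tested.

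**Figure D5:**
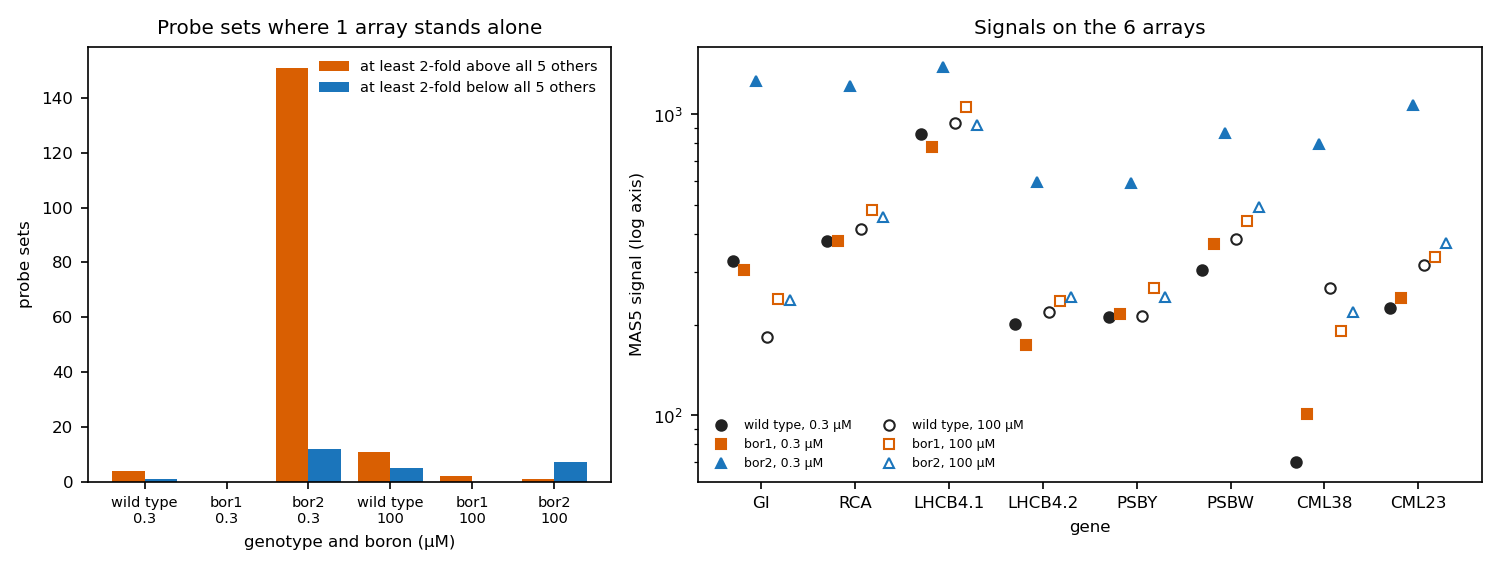
Left, number of tested probe sets at least 2-fold above or below all 5 other intact arrays, by array. Right, MAS5 signal (log axis) of 8 genes on the 6 arrays, picked after their values were seen to show the array of bor2 at 0.3 µM. That array has 151 probe sets above all others, against 0 to 11 on the other 5, and it is the brightest for all 8 genes.

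Of the 6 genes whose 3 pairs were farthest apart, 5 had opposite directions in different pairs. AT3G55790 had 21.3, 39.4 and 467.6 units at 0.3 µM and 291.3, 505.1 and 41.1 units at 100 µM, so that wild type and bor1 were lower at 0.3 µM and bor2 higher. Without bor2 its log2 difference was -3.73 (adjusted p = 8.93e-05, limma), against -1.31 (adjusted p = 0.805) with it. AT1G26390, a berberine bridge enzyme-like oxidase, had 116.0, 74.6 and 1358 units at 0.3 µM and 140.8, 657.9 and 215.5 units at 100 µM. Its neighbour in name, AT1G26380, of the same enzyme family, had 230.1, 142.9 and 1884 units at 0.3 µM and 176.2, 1028 and 350.4 units at 100 µM. Both genes share the order of the 6 arrays at its top, with bor2 at 0.3 µM first and bor1 at 100 µM second. CML38, a calmodulin-like calcium sensor, had 69.9, 100.5 and 799.2 units at 0.3 µM and 265.4, 189.9 and 220.6 units at 100 µM. None of these passed over the 3 pairs.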

How the data were processed

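Root total RNA of 7 genotypes at 2 boron levels was hybridised to 1 ATH1 array each. The authors deposited intensity values on a linear scale, made with MAS5 per the submitters' processing notes; no version or setting of it is recorded there. Precision is limited by the number of arrays. Arrays were brought to 1 common 2% trimmed mean, any value under 20 units (the 20th percentile over the arrays) was raised to it, and log2 was taken; 0.0171% of the tested values of the 6 arrays lay at this floor, and changes near it are understated. Tested were the brightest 60% of probe sets, judged on the mean of 14 arrays. Of 22810 probe sets, 64 array controls were left out. Names came from the platform annotation, updated through RefSeq (TAIR10.1): 13513 probe sets name 1 gene (13484 found in RefSeq), 503 several and 8730 none. No coordinates or sequences are given, because the files name no genome build.

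Tests used limma 3.58.1 in R 4.3.3 with statmod 1.5.0 (lmFit, contrasts.fit and a trended eBayes), two-sided, with Benjamini-Hochberg adjustment over the 13648 tested probe sets. The fit held all 14 arrays, genotype as a block and a boron term for each class, which leaves 5 residual degrees of freedom, against 2 with 6 arrays. Each group has 1 array, and nothing in the labels says how many plants or extractions it stands for, so p-values rest on the spread between genotypes, those with nip5;1 included. The block pairs arrays of the same genotype, as the labels give it. Python 3.11.15, numpy 2.4.6, pandas 2.3.3 and matplotlib 3.10.9 did the rest. The fit was run on simulated data with known changes and independent noise, to check that it returned changes of the right size. That check does not bear on the calls made here.

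The probe sets in the text and figures were drawn from all those past the threshold, the first 15 named and 5 unnamed rises and falls ranked by their weakest pair, up to 4 members of each gene list that moved the same way in all pairs, the 6 genes with the widest gap between pairs and the 6 with the smallest p for the class difference in each direction. Other genes named, such as green tissue markers and AT5G25430, were chosen after their values were seen. Genes and lists were chosen with earlier results of these data known. Lists of peroxidases, pectin methylesterases, plastid-encoded, defensin-like and cytochrome P450 genes were redrawn once the annotation was seen. Alternatives varied the samples, the block, the scaling, the floor, the filter, the variance model and a GAPDH covariate, and left out each genotype.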

Additional observations from a re-analysis of the deposited data

Results flagged for a closer look

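The response to 0.3 over 100 µM boron differed between the 3 genotypes with intact NIP5;1 and the 4 nip5;1 genotypes for 15 probe sets (adjusted p under 0.05 for the difference, limma), given here as the intact minus the nip5;1 response on the log2 scale. The difference was positive for 254971_at (2.66), 246340_s_at (2.56), AT5G04120 (1.92), SWEET11 (1.90) and 253957_at (0.979). For 254971_at and 246340_s_at, the intact genotypes responded with 2.86 and 1.79, against 0.20 and -0.77 in the nip5;1 genotypes. For SWEET11 and AT5G04120, the intact genotypes stood at -0.08 and -0.38, against -1.98 and -2.30 in the nip5;1 genotypes.

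The difference was negative for AT5G22580 (-2.91), 260438_at (-2.61), 266415_at (-2.52), 266743_at (-1.85), the formin gene AT3G07540 (-1.80), the class III peroxidase AT5G06730 (-1.69), 262118_at (-1.63), the expansin EXPA20 (-1.55), 251310_at (-1.52) and 254818_at (-1.42). AT5G22580 had 190.3, 381.9 and 486.9 units at 0.3 µM in wild type, bor1 and bor2, and 225.1, 117.3 and 267.6 units at 100 µM. It was lower at 0.3 µM in wild type and higher in bor1 and bor2, and its mean of 0.77 stood against 3.69 in the nip5;1 genotypes. AT3G07540 had 144.6, 308.8 and 279.3 units at 0.3 µM and 246.4, 278.6 and 295.0 units at 100 µM, a mean of -0.23 against 1.56 in the nip5;1 genotypes. SWEET11 and 254971_at kept their difference when any 1 genotype was left out, while AT5G22580, AT3G07540, AT5G06730, EXPA20 and AT5G04120 each lost the call in 4 or more of these 7 fits (adjusted p up to 0.169).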

How the results depend on the processing

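The count for the intact response, 18 with all arrays, was 7 with the 6 intact arrays only, 6 with no replicate block (genotype block left out, 6 arrays), 5 without a filter on dim probe sets, 10 with the GAPDH ratio as a covariate, and 9 to 18 when 1 genotype was left out (11 without each of wild type, bor1 and bor2, 11 without nip5;1 and 9 without nip5;1 bor1). All 6 calls without the block and all 7 with 6 arrays are among the 18, but only 2 of the 5 without a filter are. The class difference, 15 with all arrays, gave 7 in the upper 40% of probe sets, 0 without a filter (limma, with 1465 at an unadjusted p under 0.05) and 2 to 46 when 1 genotype was left out: 4 without wild type, 27 without bor2, 2 without nip5;1, 7 without nip5;1 bor1, 46 without nip5;1 bor2 and 5 without nip5;1 nip6;1. The 13 probe sets at least 2-fold in every pair became 7 in the upper 40% and 24 to 26 with 1 pair fewer, and the 11 that moved the same way in all nip5;1 pairs became 6 and 17 to 19. Fewer probe sets in the upper 40%, more in the unfiltered test and fewer pairs to satisfy are part of how these alternatives are built. Why other counts moved was not tested. Quantile normalization gave 16 calls, a floor at the 10th percentile 18, log2(value + 16) 18, no intensity trend 13, a robust prior 23 and the upper 40% of probe sets 22 for the intact response. For single named genes, 1874 values stayed on their side of the threshold, 146 lost a call, 9 gained one, and no call changed direction. With 1 array per genotype and level, the spread within a genotype was not measured.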

Other observations

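The remaining gene lists had few named and bright members. Of 4 tested auxin genes, 3 ethylene genes, 6 calcium signalling genes, 4 genes of iron deficiency and 9 cytochrome P450 genes, 0 passed in limma, and 1 cytochrome P450 gene had an unadjusted p under 0.05. The linker histone gene HIS1-3 had 343.2, 139.7 and 86.8 units at 0.3 µM in wild type, bor1 and bor2, and 159.9, 99.6 and 64.8 units at 100 µM. It was higher in every pair although the groups overlap (log2 0.67, SE 0.17, adjusted p = 0.258). AT5G10040 had 16.3, 3.8 and 11.3 units at 0.3 µM and 1024, 164.0 and 19.8 units at 100 µM. Of its 6 values, 4 lie under the floor of 20 units, so the wild-type array at 100 µM carries most of its difference, and the level at 0.3 µM is known only as a bound.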
